A study of Mus musculus with 9 samples.

Results

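The genes described here encode 8 surface or secreted molecules through which tumour cells restrain immune cells: Cd274, Pdcd1lg2, Cd47, Nt5e, Entpd1, Pvr, Nectin2 and Lgals9. They were chosen by symbol, with earlier results of these data known, and all 8 stood among the 49671 genes of the count table. The expression filter kept 6 of the 8 and 15766 genes in all, and Pdcd1lg2 and Entpd1 did not pass it. They were measured in 9 bulk poly(A) RNA libraries of untreated Panc02 cells, a mouse line of pancreatic ductal adenocarcinoma kept in DMEM with fetal bovine serum. The group KO_1E7 was a clone made with CRISPR-Cas9 and labelled as a VPAC2 knockout, with 3 libraries. The group CRISPR_1G2 was another clone, whose genotype label reads CRISPR-wild type, with 3 libraries. The group parental was the unedited line, labelled wild type, with 3 libraries. VPAC2 is the product of Vipr2 and binds the neuropeptides VIP and PACAP. The study's design text listed both clones under the knockout cells, whereas the label of CRISPR_1G2 does not, and the labels were followed here. Each edited group is 1 clone, so what a clone carries apart from its genotype cannot be told apart from the genotype.

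Checkpoint ligands are bound by inhibitory receptors on T cells, natural killer cells and macrophages and lower the response of those cells to the tumour. PD-L1 (Cd274) and PD-L2 (Pdcd1lg2) bind PD-1, CD155 (Pvr) and CD112 (Nectin2) bind TIGIT and the activating receptor CD226, CD47 binds SIRP-alpha on phagocytes, and galectin-9 (Lgals9) binds TIM-3. CD39 (Entpd1) and CD73 (Nt5e) act in sequence as enzymes that turn extracellular ATP into adenosine, a suppressor of T cells. PD-L1 and galectin-9 are known to be induced by interferon gamma in many cell types, and pancreatic tumours are known for a strongly suppressive immune environment.

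Promoter sequence is shown for 3 of these genes: Nectin2 and Lgals9, which differed between the clones in opposite directions, and Cd274, the gene of PD-L1. RefSeq's GRCm38.p6 start sites gave an entry for 7 of the 8 genes, and Pvr had no entry. Each run below is the 250 bases before the start site, 5′ to 3′ on the gene's own strand, with motif matches in capitals. They lie at chr7:19749574-19749823 on the minus strand for Nectin2, chr11:78984925-78985174 on the minus strand for Lgals9 and chr19:29367188-29367437 on the plus strand for Cd274. RefSeq's start sites differ from the ends of the deposited gene spans given below, and the Nectin2 window lies inside the span of that gene.
Nectin2: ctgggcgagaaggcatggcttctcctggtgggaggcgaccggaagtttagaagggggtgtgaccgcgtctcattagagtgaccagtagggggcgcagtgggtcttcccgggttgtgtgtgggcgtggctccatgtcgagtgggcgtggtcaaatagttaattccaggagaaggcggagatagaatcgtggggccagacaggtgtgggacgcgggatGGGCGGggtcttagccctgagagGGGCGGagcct
Lgals9: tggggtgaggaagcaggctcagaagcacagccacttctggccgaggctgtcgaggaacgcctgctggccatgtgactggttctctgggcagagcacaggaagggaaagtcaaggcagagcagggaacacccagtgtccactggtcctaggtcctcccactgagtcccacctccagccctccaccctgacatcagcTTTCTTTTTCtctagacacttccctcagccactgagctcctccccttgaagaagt
Cd274: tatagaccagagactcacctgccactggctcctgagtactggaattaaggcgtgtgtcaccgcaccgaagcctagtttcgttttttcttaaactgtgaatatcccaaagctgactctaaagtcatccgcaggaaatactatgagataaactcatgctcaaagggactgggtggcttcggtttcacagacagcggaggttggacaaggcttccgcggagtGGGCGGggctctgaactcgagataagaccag
The motifs searched on both strands were the interferon response element GAAANNGAAA, the gamma-activated site TTCNNNGAA, the cAMP response element TGACGTCA, the AP-1 site TGANTCA, the GC box GGGCGG and the CCAAT box. Nectin2 held GC boxes 34 and 11 bases before its start, and Cd274 held 1 GC box 31 bases before its start. Lgals9 held 1 match to the interferon response element, read as TTTCTTTTTC on the strand shown, 55 bases before its start. Among 32851 RefSeq promoter windows of 250 bases, a GC box stood in 32.7% and an interferon response element in 2.98%. A gamma-activated site stood in 7.02% of windows, a cAMP response element in 1.55%, an AP-1 site in 6.75% and a CCAAT box in 33.8%, and the 3 sequences shown held none of these.

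The libraries held between 27898705 and 51878289 counts on genes. Vipr2, the edited gene, had 1, 2 and 1 counts in KO_1E7, 1, 13 and 12 counts in CRISPR_1G2 and 6, 3 and 12 counts in parental, so it was near the detection limit in every group. Ribosomal RNA related genes took 15.3% of the counts in parental library 3, against 0.465% to 1.04% in the others. The third library of each group carries the word NSG in its column header, which the labels do not explain. The headers of the other libraries carry dates, whose meaning the labels do not give either. KO_1E7 library 1 and parental library 1 share a date, and CRISPR_1G2 library 1 and parental library 2 share another. KO_1E7 library 2 stood between the other KO_1E7 libraries and the remaining groups for several genes below. The 10 pancreatic duct epithelium markers checked were all expressed, with summed levels of 1289 to 2112 CPM (counts scaled to library size) in KO_1E7, 906 to 2130 CPM in CRISPR_1G2 and 1369 to 2066 CPM in parental. Among them Krt7, Epcam and Cldn7 were lower in every KO_1E7 library than in all others. Krt7 had 4.01 to 5.31 CPM in KO_1E7, 13.7 to 67.2 CPM in CRISPR_1G2 and 17.7 to 30.5 CPM in parental. The other markers of this list overlapped between KO_1E7 and the remaining libraries. Of the 4 acinar markers, Cela1 was the only one above 0.2 CPM in any library, at 7.37 to 13.1 CPM in KO_1E7, 1.01 to 2.11 CPM in CRISPR_1G2 and 2.08 to 2.68 CPM in parental. Endothelial and erythroid markers summed to at most 1.95 CPM in any library, and islet markers to at most 0.0305 CPM. The 6 fibroblast markers summed to 72.1 to 131 CPM in KO_1E7, 48.7 to 100.1 CPM in CRISPR_1G2 and 81.8 to 89.1 CPM in parental.

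Between the clones, Lgals9 was higher and Pvr and Nectin2 were lower in KO_1E7 than in CRISPR_1G2, and none of the 6 tested genes passed the test against parental in either clone. These calls used edgeR's quasi-likelihood test with Benjamini-Hochberg adjustment over all 15766 tested genes at 0.05. In KO_1E7 against CRISPR_1G2, 3 of the 6 tested genes were called, while 12.7% of all tested genes were called in that comparison. For 1 of the 6 the direction was higher, against 5.71% of all tested genes, and for 2 it was lower, against 7.03%. In KO_1E7 against parental, 0 of 6 were called with edgeR, beside 5.42% of all tested genes, 2.54% higher and 2.87% lower. DESeq2 called 2 of the 6, beside 2358 of the 15766 tested genes. An unadjusted p under 0.05 (edgeR) was found for 3 of the 6, beside 3735 of the 15766. In CRISPR_1G2 against parental, 0 of 6 were called with either tool, beside 0.254% of all tested genes with edgeR and 235 genes with DESeq2. There 1 of the 6 had an unadjusted p under 0.05 (edgeR), beside 1218 of the 15766. The median log2 fold change of the 6 genes was -0.56 in KO_1E7 against CRISPR_1G2, -0.56 in KO_1E7 against parental and -0.14 in CRISPR_1G2 against parental. Over all tested genes the same medians were -0.03, -0.03 and 0.02. The libraries of the groups did not overlap for 3 of 6 genes between the clones, against 38.6% of all tested genes. They did not overlap for 1 of 6 in KO_1E7 against parental, where the background was 34.4%, and for 1 of 6 in CRISPR_1G2 against parental, where it was 13.1%. The 3 comparisons share libraries, so they are not independent of each other. Without KO_1E7 library 1 or 3, 0 of the 6 genes were called between the clones, and 553 and 453 genes were called over the whole table, against 2010 with all libraries.

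**Figure D1:**
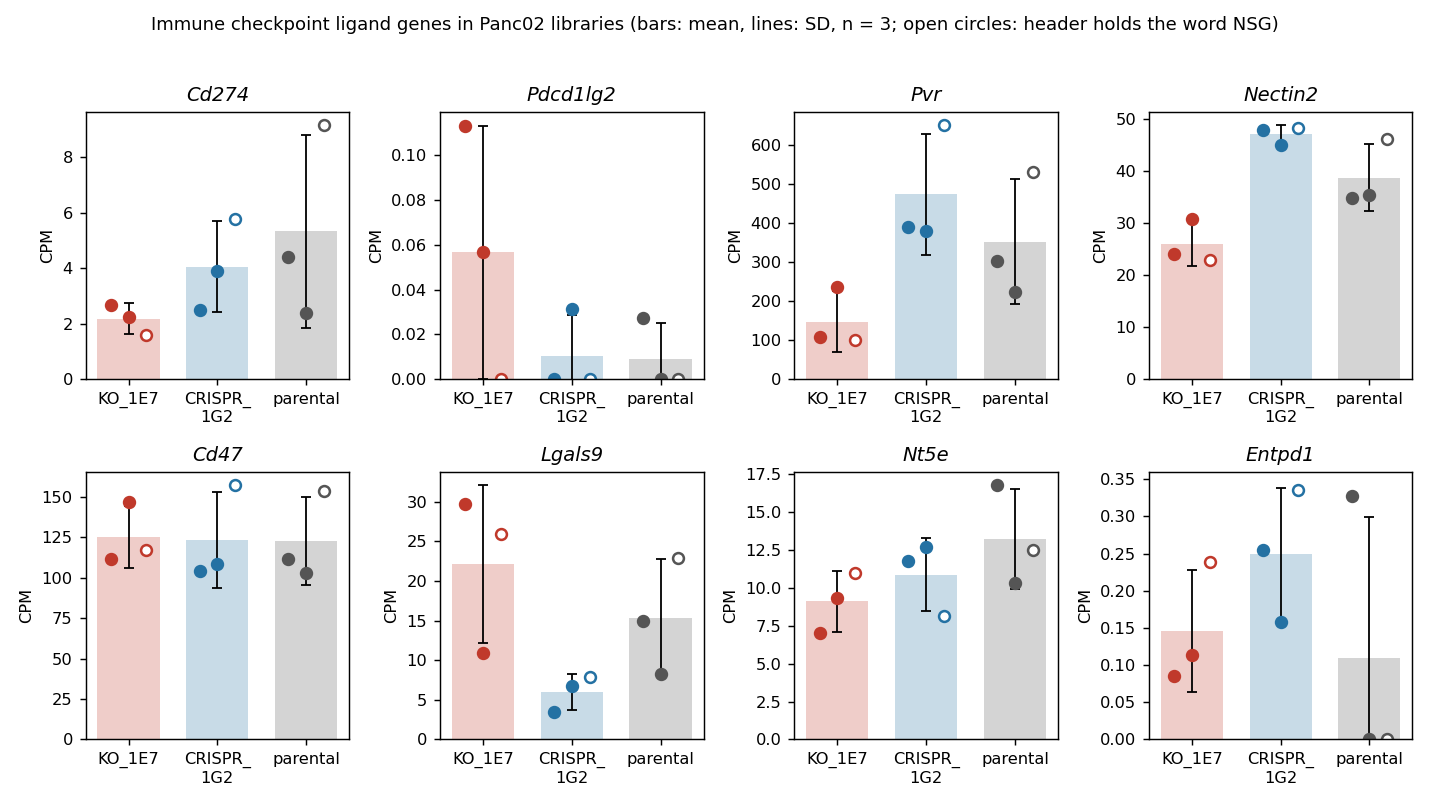
CPM of each of the 8 genes in each library of KO_1E7, CRISPR_1G2 and parental, with group mean (bar) and SD (line, n = 3); open circles are the libraries whose header holds the word NSG. Pvr and Nectin2 are lower and Lgals9 is higher in all KO_1E7 libraries than in all CRISPR_1G2 libraries, Cd47 is level, and Pdcd1lg2 and Entpd1 lie below 0.4 CPM.

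**Figure D2:**
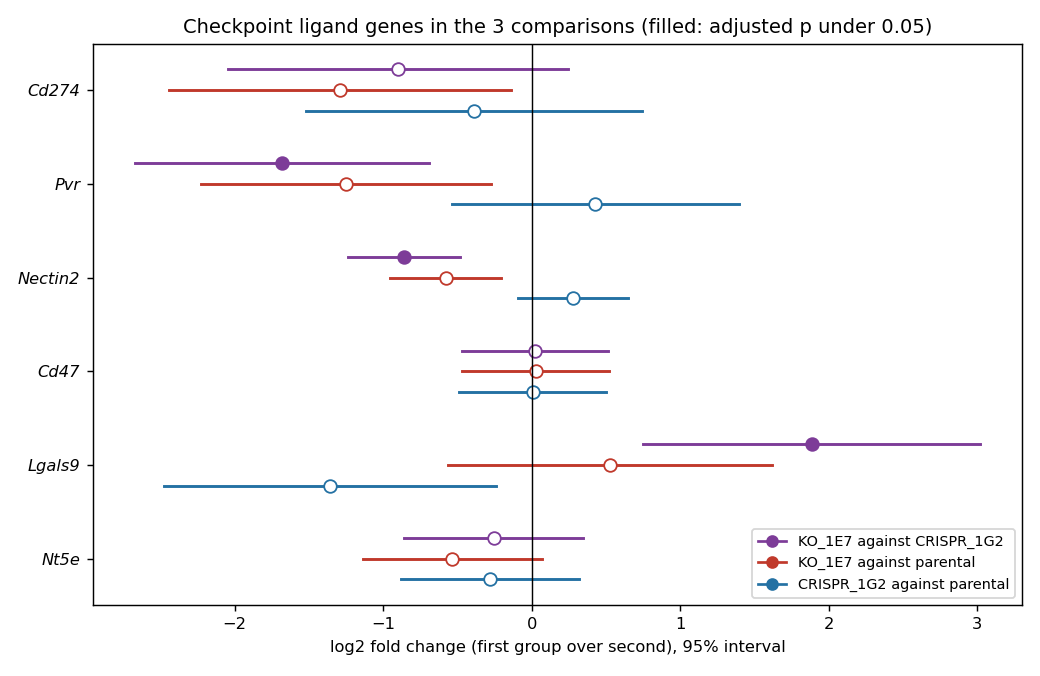
Log2 fold change with its 95% interval for the 6 tested genes in the 3 comparisons; filled points passed an adjusted p of 0.05. The filled points are Pvr, Nectin2 and Lgals9 in KO_1E7 against CRISPR_1G2.

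Pvr (ENSMUSG00000040511, chr7:19903578-19921160, minus strand), which encodes CD155, had 107, 237 and 99.5 CPM in KO_1E7, 389, 379 and 652 CPM in CRISPR_1G2 and 302, 222 and 531 CPM in parental. Every KO_1E7 library was below every CRISPR_1G2 library, and KO_1E7 library 2 was above the lowest parental library. Pvr averaged 148 ± 77.0 CPM in KO_1E7 and 474 ± 155 CPM in CRISPR_1G2 (SD, n = 3 each). It was 3.20-fold lower in KO_1E7, a log2 fold change of -1.68 ± 0.44 (SE, adjusted p = 0.0390, edgeR). Against the parental mean of 352 ± 160 CPM (SD, n = 3), the log2 fold change of KO_1E7 was -1.25 ± 0.43 (SE, adjusted p = 0.125, edgeR) and that of CRISPR_1G2 was 0.43 ± 0.43 (SE, adjusted p = 0.902, edgeR). The call between the clones held in 12 of 20 alternative settings, with adjusted p between 6.59e-05 and 0.153. For every gene these 20 include 2 sets of libraries chosen after seeing the data. Some others, such as another scaling, change the fit little, so the number held does not measure certainty. The call of Pvr was lost without KO_1E7 library 1 (adjusted p = 0.144, edgeR) or 3 (0.153), without CRISPR_1G2 library 1 (0.0679), 2 (0.0666) or 3 (0.0784), and without parental library 1 (0.0648). In KO_1E7 against parental it was called with DESeq2 (adjusted p = 0.0404). On the other strand, Gm16184 lies inside the Pvr span and Gm16251 overlaps its end. Neither shares an exon base with Pvr, and they held 1498 and 105 counts over all libraries.

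Nectin2 (ENSMUSG00000062300, chr7:19716644-19750483, minus strand), which encodes CD112 and whose promoter is shown above, had 24.1, 30.8 and 22.9 CPM in KO_1E7, 47.9, 44.9 and 48.3 CPM in CRISPR_1G2 and 34.7, 35.4 and 46.1 CPM in parental. All KO_1E7 libraries were below all libraries of both other groups, and CRISPR_1G2 and parental overlapped. Nectin2 averaged 25.9 ± 4.24 CPM in KO_1E7 and 47.0 ± 1.85 CPM in CRISPR_1G2 (SD, n = 3 each). This was 1.81-fold lower in KO_1E7, a log2 fold change of -0.86 ± 0.17 (SE, adjusted p = 0.0139, edgeR). Parental averaged 38.7 ± 6.40 CPM (SD, n = 3), and against it the log2 fold change of KO_1E7 was -0.58 ± 0.16 (SE, adjusted p = 0.0751, edgeR), a difference that DESeq2 called (adjusted p = 0.0230). For CRISPR_1G2 against parental it was 0.28 ± 0.16 (SE, adjusted p = 0.776, edgeR). The call between the clones held in 18 of 20 alternative settings, with adjusted p between 1.00e-04 and 0.0756, and was lost without KO_1E7 library 1 (adjusted p = 0.0677, edgeR) or 3 (0.0756). The gene Gm20512 overlaps 135 exon bases of Nectin2 on the other strand and held 23 counts over all libraries.

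Pvr and Nectin2 lie on chromosome 7, 153 kb apart, and their levels followed each other over the 9 libraries, with a Pearson r of 0.960 between their log2 CPM. Libraries of 1 group share a clone, so the 9 points are not independent. On chromosome 7 the median over 1240 tested genes was -0.53 on the log2 scale in KO_1E7 against CRISPR_1G2, and 274 of them (22.1%) were lower against 24 higher, where 7.03% of all tested genes were lower. In the same comparison 26.2% of the chromosome's genes had a more negative log2 fold change than Nectin2, and 7.74% a more negative one than Pvr. Within 250 kb of the pair, 10 of 24 other tested genes were lower in KO_1E7 than in CRISPR_1G2 and 0 higher, 20 of 24 had a negative log2 fold change, and their median was -0.75. Bcam, which encodes a laminin-binding adhesion molecule and lies next to Nectin2, had a log2 fold change of -1.31 ± 0.20 (SE, adjusted p = 0.00611, edgeR). Tomm40, a subunit of the mitochondrial import pore on its other side, had one of -0.99 ± 0.22 (SE, adjusted p = 0.0219, edgeR), and Clptm1 had one of -0.73 ± 0.11 (SE, adjusted p = 0.00684, edgeR). In KO_1E7 against parental, 5 of the 24 were lower and 0 higher, and their median log2 fold change was -0.66 beside a chromosome median of -0.45. In CRISPR_1G2 against parental, 0 of the 24 were called and the median log2 fold change was 0.15 beside a chromosome median of 0.06. Bcam, Tomm40 and Clptm1 were chosen as neighbours after their values were seen. The part of the chromosome's shift in the values of Pvr and Nectin2 was not tested.

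**Figure D3:**
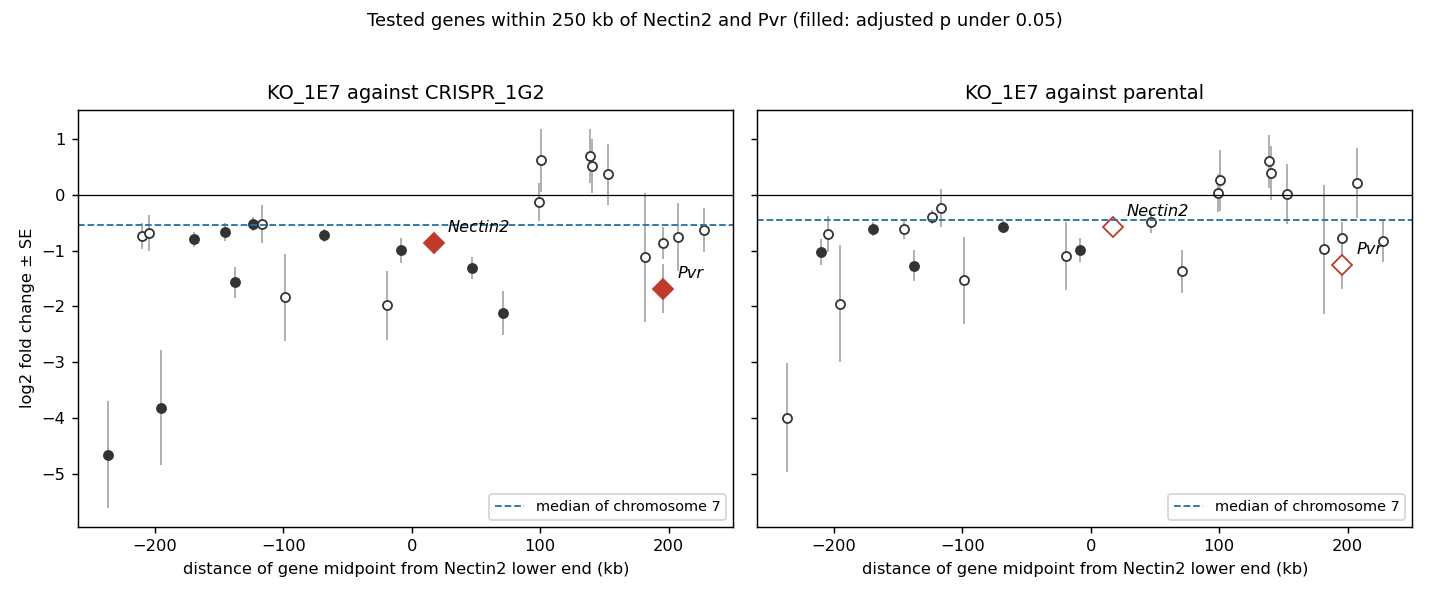
Log2 fold change ± SE of tested genes within 250 kb of Nectin2 and Pvr (diamonds), by distance of the gene's midpoint from the lower end of Nectin2 in kb; filled points passed an adjusted p of 0.05 and the dashed line is the median of chromosome 7. In KO_1E7 against CRISPR_1G2, 20 of the 24 neighbours lie below 0, and in KO_1E7 against parental 18 do.

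Cd274 (ENSMUSG00000016496, chr19:29367455-29388095, plus strand), which encodes PD-L1, had 2.68, 2.25 and 1.58 CPM in KO_1E7, 2.51, 3.91 and 5.77 CPM in CRISPR_1G2 and 4.40, 2.40 and 9.17 CPM in parental. These rest on 53 to 330 counts per library. The groups overlapped, and the highest CRISPR_1G2 and parental values were those of library 3, whose header holds the word NSG. Cd274 averaged 2.2 ± 0.56 CPM in KO_1E7, 4.06 ± 1.64 CPM in CRISPR_1G2 and 5.32 ± 3.48 CPM in parental (SD, n = 3 each). The log2 fold change was -1.29 ± 0.51 in KO_1E7 against parental (SE, adjusted p = 0.167, edgeR), with a 95% interval of -2.44 to -0.14. It was -0.90 ± 0.50 in KO_1E7 against CRISPR_1G2 (SE, adjusted p = 0.275, edgeR), with an interval of -2.05 to 0.24, and -0.39 ± 0.50 in CRISPR_1G2 against parental (SE, adjusted p = 0.934, edgeR). The first of these was -0.45 (adjusted p = 0.455, edgeR) when library 3 of every group was left out.

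Pdcd1lg2 (ENSMUSG00000016498, chr19:29410919-29471157, plus strand), which encodes PD-L2 beside Cd274, had 4, 3 and 0 counts in KO_1E7, 0, 1 and 0 counts in CRISPR_1G2 and 1, 0 and 0 counts in parental. Pooled over 3 libraries this was 0.0575 CPM in KO_1E7 (95% exact Poisson interval 0.0231 to 0.119), 0.0109 CPM in CRISPR_1G2 (0.000275 to 0.0606) and 0.00919 CPM in parental (0.000233 to 0.0512). The intervals cover counting error only and overlap between all groups, and a count of 0 allows up to 0.0568 to 0.109 CPM in a library. A difference in Pdcd1lg2 was not detectable at this depth.

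Among 27 genes known to set PD-L1 levels, all of them tested, 3 were higher and 0 lower in KO_1E7 than in parental, and 4 were higher and 1 lower in KO_1E7 than in CRISPR_1G2 (edgeR). Their median log2 fold changes were -0.07 and -0.11, beside -0.03 for all tested genes in each comparison. Stat3, a transcription factor downstream of cytokine receptors, had 141, 103 and 130 CPM in KO_1E7, 64.5, 68.6 and 61.9 CPM in CRISPR_1G2 and 54.9, 67.7 and 60.2 CPM in parental. All KO_1E7 libraries lay above all others, with a log2 fold change of 0.94 ± 0.15 against CRISPR_1G2 (SE, adjusted p = 0.00687, edgeR) and 1.03 ± 0.15 against parental (SE, adjusted p = 0.0128, edgeR). Socs3, a feedback inhibitor that STAT3 induces, was at 29.1, 26.6 and 34.3 CPM in KO_1E7, 14.3, 17.1 and 18.9 CPM in CRISPR_1G2 and 17.5, 15.7 and 16.7 CPM in parental. Its log2 fold change in KO_1E7 was 0.84 ± 0.16 against CRISPR_1G2 (SE, adjusted p = 0.0136, edgeR) and 0.85 ± 0.16 against parental (SE, adjusted p = 0.0247, edgeR). Jak1, the kinase shared by interferon and interleukin receptors, was higher in KO_1E7 by 0.45 ± 0.10 on the log2 scale against CRISPR_1G2 (SE, adjusted p = 0.0256, edgeR) and by 0.47 ± 0.10 against parental (SE, adjusted p = 0.0390, edgeR). Cmtm6, which protects PD-L1 from lysosomal breakdown, had 70.6, 77.8 and 77.9 CPM in KO_1E7 and 55.2, 53.3 and 46.5 CPM in CRISPR_1G2, a log2 fold change of 0.55 ± 0.12 (SE, adjusted p = 0.0199, edgeR). Gsk3b, a kinase that marks PD-L1 for degradation, had 69.9, 90.9 and 68.2 CPM in KO_1E7 and 123, 122 and 187 CPM in CRISPR_1G2, a log2 fold change of -0.92 ± 0.22 (SE, adjusted p = 0.0291, edgeR). It lies on chromosome 16, whose median log2 fold change between the clones was -0.52. In CRISPR_1G2 against parental 0 of the 27 were called with edgeR or DESeq2. There 1 had an unadjusted p under 0.05 (edgeR), beside 1218 of all 15766 tested genes.

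Cd47 (ENSMUSG00000055447, chr16:49855618-49915010, plus strand), the signal that restrains engulfment by macrophages, had 112, 147 and 117 CPM in KO_1E7, 104, 109 and 157 CPM in CRISPR_1G2 and 112, 103 and 154 CPM in parental. The 3 groups covered the same range, with 1 library in each between 147 and 157 CPM. Cd47 averaged 125 ± 18.9 CPM in KO_1E7, 123 ± 29.5 CPM in CRISPR_1G2 and 123 ± 27.2 CPM in parental (SD, n = 3 each). The log2 fold change was 0.03 ± 0.22 in KO_1E7 against parental (SE, adjusted p = 0.958, edgeR), with a 95% interval of -0.47 to 0.52. It was 0.02 ± 0.22 between the clones, with an interval of -0.47 to 0.51, and 0.01 ± 0.22 in CRISPR_1G2 against parental, with an interval of -0.49 to 0.50. The median over chromosome 16 was -0.52 on the log2 scale between the clones, and 81.5% of its tested genes lay below Cd47.

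Of 11 genes of the CD47 axis, 10 were tested, and 3 were higher and 1 lower in KO_1E7 than in CRISPR_1G2 (edgeR). Their median log2 fold change was 0.49, beside -0.03 for all tested genes. Thbs2, which encodes the matrix protein thrombospondin 2, had 2756, 3399 and 2658 CPM in KO_1E7, 9.99, 11.8 and 5.43 CPM in CRISPR_1G2 and 289, 281 and 347 CPM in parental. The 3 groups were far apart, with a log2 fold change of 8.34 ± 0.36 between the clones (SE, adjusted p = 2.42e-05, edgeR), 3.27 ± 0.28 in KO_1E7 against parental (SE, adjusted p = 0.00276, edgeR) and -5.07 ± 0.31 in CRISPR_1G2 against parental (SE, adjusted p = 0.000335, edgeR). Thbs1, whose product thrombospondin 1 is a known CD47 ligand, had 550, 218 and 499 CPM in KO_1E7, 55.1, 101 and 156 CPM in CRISPR_1G2 and 140, 151 and 166 CPM in parental. Its log2 fold change between the clones was 2.02 ± 0.42 (SE, adjusted p = 0.0187, edgeR), with KO_1E7 library 2 the nearest to the other groups. Among the fibroblast markers, Pdgfrb had 110.4, 47.8 and 93.9 CPM in KO_1E7, 18.2, 22.9 and 29.8 CPM in CRISPR_1G2 and 58.5, 67.2 and 45.6 CPM in parental. Other markers of the list did not follow it between the clones. Col1a1 was lower in KO_1E7, at 3.31 to 10.2 CPM, than in CRISPR_1G2, at 15.8 to 33.3 CPM. Acta2 had at most 6.92 CPM in KO_1E7 and 5.99 to 22.9 CPM in CRISPR_1G2. Pdgfra overlapped between the clones, and Dcn and Lum were at 0 in KO_1E7 libraries 2 and 3. The part of the fibroblast markers in the thrombospondin values was not tested. Lrp1, a receptor for engulfment signals, had a log2 fold change of 0.76 ± 0.20 between the clones (SE, adjusted p = 0.0439, edgeR). Qpctl, the glutaminyl cyclase that modifies CD47 at its SIRP-alpha binding site, had 13.1, 12 and 13.1 CPM in KO_1E7, 24.6, 23.9 and 20.0 CPM in CRISPR_1G2 and 20.1, 26.3 and 17.7 CPM in parental. All KO_1E7 libraries were below all others, by -0.84 ± 0.18 on the log2 scale against CRISPR_1G2 (SE, adjusted p = 0.0192, edgeR) and -0.75 ± 0.18 against parental (SE, adjusted p = 0.0473, edgeR).

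Lgals9 (ENSMUSG00000001123, chr11:78962974-78984946, minus strand), which encodes galectin-9 and whose promoter is shown above, had 29.6, 10.9 and 26.0 CPM in KO_1E7, 3.41, 6.71 and 7.82 CPM in CRISPR_1G2 and 14.9, 8.20 and 22.9 CPM in parental. All CRISPR_1G2 libraries were below all libraries of both other groups, and KO_1E7 and parental overlapped through KO_1E7 library 2. Lgals9 averaged 22.2 ± 9.95 CPM in KO_1E7, 5.98 ± 2.29 CPM in CRISPR_1G2 and 15.4 ± 7.38 CPM in parental (SD, n = 3 each). It was 3.70-fold higher in KO_1E7 than in CRISPR_1G2, a log2 fold change of 1.89 ± 0.50 (SE, adjusted p = 0.0415, edgeR). The log2 fold change was 0.53 ± 0.48 in KO_1E7 against parental (SE, adjusted p = 0.549, edgeR) and -1.36 ± 0.49 in CRISPR_1G2 against parental (SE, adjusted p = 0.564, edgeR), with a 95% interval of -2.48 to -0.24 for the second. The call between the clones held in 13 of 20 alternative settings, with adjusted p between 0.00169 and 0.139. It was lost without KO_1E7 library 1 (adjusted p = 0.139, edgeR) or 3 (0.135), without CRISPR_1G2 library 1 (0.108) or 2 (0.0940), and without parental library 1 (0.0700). The median over chromosome 11 was -0.28 on the log2 scale between the clones, and 98.7% of its tested genes lay below Lgals9.

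Of 11 genes listed as other galectins and galectin ligands, 10 were tested, and 2 were higher and 3 lower in KO_1E7 than in CRISPR_1G2 (edgeR), with a median log2 fold change of -0.01. The list also holds Cd44, P4hb and the receptor gene Havcr2. Havcr2 is 1 of the 3 lower genes and is counted again among the receptors below. Lgals7, which encodes galectin-7 of stratified epithelia, had 78.3, 78.8 and 66.7 CPM in KO_1E7, 0.545, 1.23 and 1.2 CPM in CRISPR_1G2 and 38.6, 25.7 and 42.3 CPM in parental. It was nearly absent from CRISPR_1G2, with a log2 fold change of 6.21 ± 0.35 in KO_1E7 against CRISPR_1G2 (SE, adjusted p = 8.1e-05, edgeR) and -5.14 ± 0.33 in CRISPR_1G2 against parental (SE, adjusted p = 0.00039, edgeR). Lgals8 had 68.9, 81.2 and 78.8 CPM in KO_1E7 and 37.6, 40.3 and 47.4 CPM in CRISPR_1G2, a log2 fold change of 0.87 ± 0.17 (SE, adjusted p = 0.0162, edgeR). Lgals3, a galectin known from many carcinomas, had 276, 287 and 186 CPM in KO_1E7 and 439, 490 and 579 CPM in CRISPR_1G2, a log2 fold change of -1.01 ± 0.21 (SE, adjusted p = 0.0176, edgeR). Lgals4 had a log2 fold change of -2.22 ± 0.50 (SE, adjusted p = 0.0231, edgeR) at 0.298 to 0.606 CPM in KO_1E7 and 1.34 to 3.51 CPM in CRISPR_1G2, and this value is uncertain because its near-identical paralog Lgals6 may share reads. The galectins thus moved in both directions between the clones, Lgals9 upward and Lgals3 downward.

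Nt5e (ENSMUSG00000032420, chr9:88327197-88372092, plus strand), which encodes the adenosine-forming enzyme CD73, had 7.01, 9.36 and 11 CPM in KO_1E7, 11.8, 12.7 and 8.15 CPM in CRISPR_1G2 and 16.8, 10.4 and 12.5 CPM in parental. The groups overlapped. Nt5e averaged 9.13 ± 2.01 CPM in KO_1E7, 10.9 ± 2.42 CPM in CRISPR_1G2 and 13.2 ± 3.28 CPM in parental (SD, n = 3 each). The log2 fold change was -0.53 ± 0.27 in KO_1E7 against parental (SE, adjusted p = 0.263, edgeR), with a 95% interval of -1.14 to 0.07. It was -0.25 ± 0.27 between the clones (SE, adjusted p = 0.573, edgeR), with an interval of -0.86 to 0.35, and -0.28 in CRISPR_1G2 against parental (adjusted p = 0.897, edgeR), with an interval of -0.88 to 0.32.

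Entpd1 (ENSMUSG00000048120, chr19:40612366-40741602, plus strand), which encodes CD39, had 3, 6 and 8 counts in KO_1E7, 7, 5 and 11 counts in CRISPR_1G2 and 12, 0 and 0 counts in parental. Pooled, this was 0.140 CPM in KO_1E7 (95% exact Poisson interval 0.0814 to 0.224), 0.250 CPM in CRISPR_1G2 (0.158 to 0.375) and 0.110 CPM in parental (0.0570 to 0.193). The parental value came from library 1 alone, and the pooled intervals cover counting error only. The leukocyte marker Ptprc had 1.84, 2.56 and 1.88 CPM in KO_1E7, 3.85, 2.2 and 2.53 CPM in CRISPR_1G2 and 1.97, 0.0276 and 0.0834 CPM in parental, and Itgam, Csf1r and Lyz2, markers of myeloid cells, were likewise low in parental libraries 2 and 3. These 4 were chosen after their values were seen, and other markers of the list did not follow them: Cd68 had 4.54, 2.65 and 7.92 CPM and Cd74 had 1.99, 0.414 and 4.73 CPM in parental libraries 1, 2 and 3. The 15 immune markers summed to 21.3 to 22.9 CPM in KO_1E7, 20.1 to 31.8 CPM in CRISPR_1G2 and 24.3, 3.78 and 15.8 CPM in parental libraries 1, 2 and 3. Among them Ncr1 had 0 counts in all libraries and Cd3e 1 count in all. Their part in the Entpd1 counts was not tested, and in bulk RNA fewer cells of a type and less RNA per cell cannot be told apart.

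**Figure D4:**
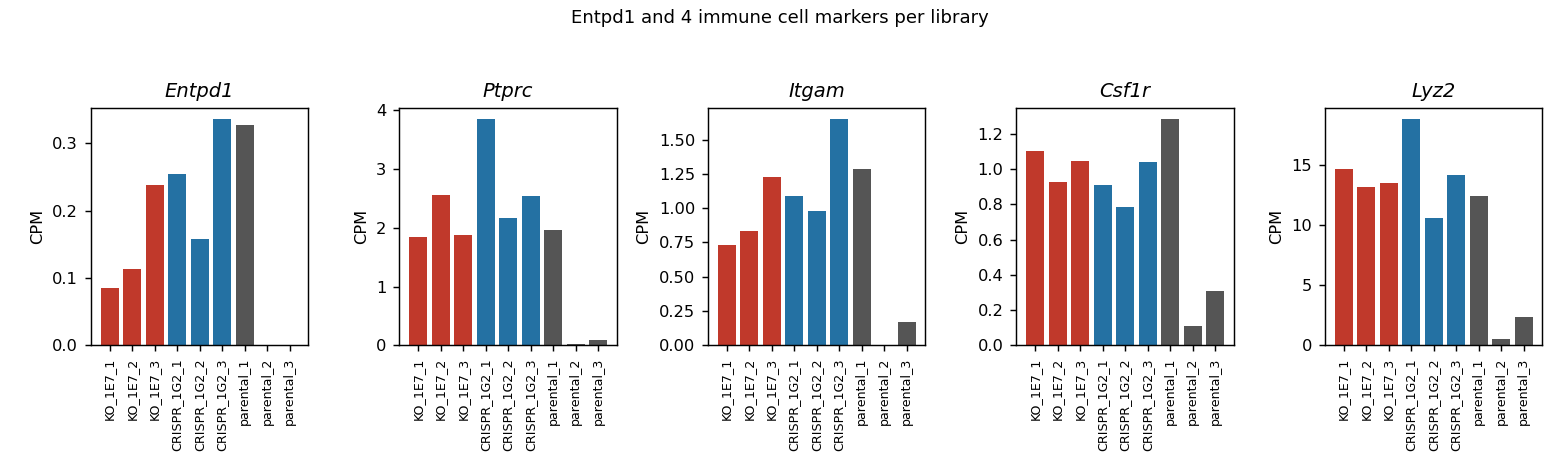
CPM of Entpd1 and of the leukocyte and myeloid markers Ptprc, Itgam, Csf1r and Lyz2 in each of the 9 libraries, coloured by group. Entpd1 is at 0 in parental libraries 2 and 3, where Ptprc is at 0.0276 and 0.0834 CPM.

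Of 24 genes that handle extracellular ATP and adenosine, 14 were tested, and 2 were higher and 2 lower in KO_1E7 than in CRISPR_1G2 (edgeR), with a median log2 fold change of 0.02. P2ry2, a receptor for extracellular ATP and UTP, had 0.989, 0.966 and 1.01 CPM in KO_1E7, 3.70, 4.0 and 7.60 CPM in CRISPR_1G2 and 6.58, 3.67 and 7.73 CPM in parental. KO_1E7 was below both other groups without overlap, with a log2 fold change of -2.36 ± 0.38 against CRISPR_1G2 (SE, adjusted p = 0.00756, edgeR) and -2.59 ± 0.39 against parental (SE, adjusted p = 0.0138, edgeR). P2rx7, the ATP-gated channel, had 3.82, 6.06 and 4.24 CPM in KO_1E7, 18.8, 25.9 and 92.8 CPM in CRISPR_1G2 and 17.9, 16.3 and 47.0 CPM in parental. Its log2 fold change between the clones was -3.28 ± 0.68 (SE, adjusted p = 0.0182, edgeR), and the highest values of CRISPR_1G2 and parental were again those of library 3. Entpd5, a relative of CD39 that acts in the endoplasmic reticulum, was higher in KO_1E7 than in CRISPR_1G2 by 0.49 ± 0.12 on the log2 scale (SE, adjusted p = 0.0312, edgeR), and the ATP-gated channel gene P2rx4 by 0.53 ± 0.15 (SE, adjusted p = 0.0479, edgeR).

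Of 11 further nectin family genes and partners, 6 were tested, and 1 was higher and 3 lower in KO_1E7 than in CRISPR_1G2 (edgeR), with a median log2 fold change of -2.83. Nectin1, an adhesion molecule of epithelial junctions, had 0.283, 2.58 and 0.0895 CPM in KO_1E7, 11.1, 10.1 and 9.34 CPM in CRISPR_1G2 and 5.22, 6.71 and 4.20 CPM in parental. Its log2 fold change between the clones was -3.32 ± 0.91 (SE, adjusted p = 0.0458, edgeR), a call that held in 9 of 20 alternative settings. The value in KO_1E7 library 3 is the level of 3 counts, so the size of this fold change is uncertain. Cadm4, a related adhesion molecule, had a log2 fold change of -3.17 ± 0.72 (SE, adjusted p = 0.0248, edgeR), and Cadm1, which binds a receptor of cytotoxic lymphocytes, had one of 0.99 ± 0.20 (SE, adjusted p = 0.0158, edgeR). Tigit, the inhibitory receptor for Pvr and Nectin2, had 5.12, 8.09 and 2.15 CPM in KO_1E7, 41.1, 30.8 and 14.7 CPM in CRISPR_1G2 and 24.8, 15.9 and 17.8 CPM in parental. All KO_1E7 libraries were below all others, with a log2 fold change between the clones of -2.49 ± 0.51 (SE, adjusted p = 0.0176, edgeR). Against parental that of KO_1E7 was -1.92 ± 0.50 (SE, adjusted p = 0.0614, edgeR) and was not called. Tigit lies on chromosome 16, where the median between the clones was -0.52 and 27.2% of tested genes were lower. The part of that shift was not tested. In the same libraries the T cell markers Cd3e, Cd3d and Cd8a had at most 2 counts in any library. Cd4, also on the list, had at most 4, in CRISPR_1G2 library 3. The part of immune cells in the Tigit values was not tested.

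Of 14 listed receptors, most of which bind these molecules or the adenosine they yield, 6 were tested, and 2 were lower and 0 higher in KO_1E7 than in CRISPR_1G2 (edgeR). These were Tigit, also counted in the nectin list, and Havcr2, also counted in the galectin list, which encodes the galectin-9 receptor TIM-3. Havcr2 had 0.0565, 0.246 and 0.0597 CPM in KO_1E7, 1.05, 2.65 and 2.32 CPM in CRISPR_1G2 and 1.28, 0.331 and 1.83 CPM in parental, with a log2 fold change between the clones of -3.92 ± 0.79 (SE, adjusted p = 0.0167, edgeR). In KO_1E7 libraries 1 and 3 it was below the level of 3 counts, 0.0848 and 0.0895 CPM, so the size of this fold change is uncertain. TIM-3 is mainly a receptor of lymphocytes and myeloid cells, and the part of the immune markers given above in its values was not tested. Of 25 other checkpoint ligands and suppressive molecules, 13 were tested, and 1 was higher and 1 lower between the clones (edgeR). Cd276, which encodes the B7 family ligand B7-H3, had 25.4, 28.2 and 27.7 CPM in KO_1E7, 66.0, 55.8 and 37.5 CPM in CRISPR_1G2 and 37.4, 45.3 and 41.4 CPM in parental. KO_1E7 lay below both groups, with a log2 fold change between the clones of -0.97 ± 0.20 (SE, adjusted p = 0.0176, edgeR) and one of -0.61 ± 0.20 against parental (SE, adjusted p = 0.108, edgeR). Ido2, related to the tryptophan-degrading enzyme IDO1, had 6.1, 6.16 and 5.85 CPM in KO_1E7 and 1.85, 2.02 and 0.611 CPM in CRISPR_1G2, a log2 fold change of 2.02 ± 0.49 (SE, adjusted p = 0.0303, edgeR).

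Over the 7 lists together, 82 genes other than the 8 were tested, and 24 of them (29.3%) were called in KO_1E7 against CRISPR_1G2, 6 (7.32%) in KO_1E7 against parental and 2 (2.44%) in CRISPR_1G2 against parental. Over all tested genes the same shares were 12.7%, 5.42% and 0.254%, and they are also the background for the counts of each list above. The lists were chosen with earlier results of these data known. Of the 24, 5 remained called without KO_1E7 library 1, 4 without KO_1E7 library 3, 13 without CRISPR_1G2 library 1 and 11 without CRISPR_1G2 library 2. Without KO_1E7 library 2, CRISPR_1G2 library 3 or any parental library, between 18 and 24 of them remained. Stat3, Thbs2, Lgals7 and P2ry2 held their call between the clones in all 20 alternative settings. Of the 6 called against parental, 1 remained without KO_1E7 library 1 or 3, and 2 without parental library 1 and 3 without parental library 2 or 3. More were called in other settings, with 19 (23.2%) under DESeq2, 17 without CRISPR_1G2 library 3, 16 with a term for the word NSG and 16 when library 3 of every group was left out. Without parental 3 and CRISPR_1G2 3 there were 21, and 32 when KO_1E7 2 was left out too, both sets chosen after seeing the data. The 6 were Stat3, Socs3, Jak1, Thbs2, Qpctl and P2ry2. Against parental, KO_1E7 thus had 0 calls with edgeR among the other checkpoint ligands, the receptors, the nectin family and the galectins. In these lists 3, 2, 4 and 5 genes had an unadjusted p under 0.05 (edgeR), and DESeq2 called 2, 2, 2 and 4. Over all 15766 tested genes, 3735 had such an unadjusted p in that comparison and DESeq2 called 2358. In CRISPR_1G2 against parental, Thbs2 and Lgals7 held in all 20. Among the list genes a chromosome is given above only for Gsk3b and Tigit. Chromosome 7, where Pvr and Nectin2 lie, had a median log2 fold change of -0.53 between the clones. The part of chromosome shifts in the values of the other list genes was not tested.

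**Figure D5:**
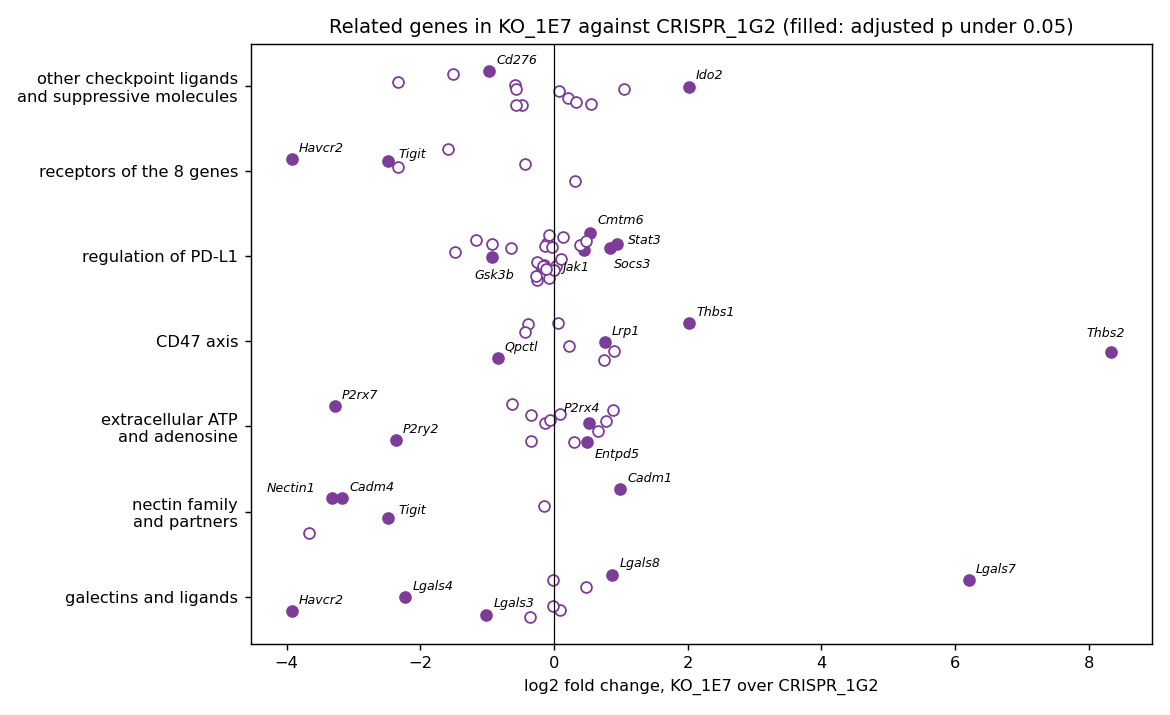
Log2 fold change of tested genes of the 7 related lists in KO_1E7 against CRISPR_1G2; filled and named points passed an adjusted p of 0.05, and vertical spread within a row has no meaning. Thbs2 at 8.34 and Lgals7 at 6.21 lie farthest to the right, and Havcr2 at -3.92 is the lowest named point.

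To compare levels between genes, CPM were divided by exon length in kilobases (RPKM). Pvr and Cd47 led in every group. Mean levels in KO_1E7 were 24.1 RPKM for Pvr, 23.7 RPKM for Cd47, 10.4 RPKM for Lgals9, 7.42 RPKM for Nectin2, 1.06 RPKM for Nt5e and 0.600 RPKM for Cd274. In that group Pvr overlapped Cd47 and Lgals9 overlapped Nectin2 over the 3 libraries. In CRISPR_1G2 the order was 77.4 RPKM for Pvr, 23.4 RPKM for Cd47, 13.5 RPKM for Nectin2, 2.80 RPKM for Lgals9, 1.27 RPKM for Nt5e and 1.12 RPKM for Cd274, with Nt5e and Cd274 overlapping. In parental it was 57.5 RPKM for Pvr, 23.3 RPKM for Cd47, 11.1 RPKM for Nectin2, 7.19 RPKM for Lgals9, 1.54 RPKM for Nt5e and 1.47 RPKM for Cd274. There Nectin2 overlapped Lgals9 and Nt5e overlapped Cd274. Lgals9 stood above Nectin2 by mean level in KO_1E7 and below it in CRISPR_1G2 and parental. Entpd1 and Pdcd1lg2 were last in all groups, at or below 0.0447 RPKM. Over all 9 libraries, the mean RPKM of Pvr exceeded that of 94.1% of tested genes, that of Cd47 84.4%, that of Nectin2 67.8%, that of Lgals9 57.5%, that of Nt5e 32.2% and that of Cd274 30.0%.

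Over the 9 libraries the log2 CPM of Cd274 and Pvr had a Pearson r of 0.777, Nectin2 and Lgals9 one of -0.692, and Pvr and Lgals9 one of -0.558. The genes whose levels followed each of the 6 most closely, among 12184 candidates with a mean of at least 1 CPM, were as follows. For Cd274 they were Irgm1 (r = 0.975) and Usp18 (0.971), for Pvr they were Zfp609 (0.984) and Aff2 (0.977), and for Nectin2 they were Pmepa1 (0.981) and Ovol1 (0.980). For Cd47 they were Parp6 (0.989) and Ypel1 (0.988), for Lgals9 they were Gm16907 (0.971) and Shank1 (0.970), and for Nt5e they were Phgdh (0.930) and Brd3os (0.900). These are the highest values of a search over many genes in libraries that share clones, and they are given as a description.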

How the data were processed

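The authors deposited raw read counts per gene, without normalization, for each sample and again in a series table, and the 2 versions differed in 0 cells. Per the submitters' processing notes, reads were handled with bcl2fastq 2.17, STAR 2.5.2b and featureCounts of Subread 1.5.2 on GRCm38, and DESeq2 is also named. Per the labels' protocols, oligo-dT libraries came from a kit that does not mark strand. Neither the annotation release nor the strand setting is given in the sources used here. Library sizes and tests excluded the 92 spike-in controls.

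The expression filter of edgeR kept 15766 genes. They were tested in R 4.3.3 with the robust quasi-likelihood test of edgeR 4.0.16 with TMM scaling and all 9 libraries in 1 fit, and Benjamini-Hochberg adjustment over all tested genes at 0.05. DESeq2 1.42.0 was an alternative. CPM use TMM-scaled library sizes, and log2 CPM a prior count of 2. Fold changes are ratios of the group named first over the group named second. An exact permutation test of 3 against 3 libraries cannot go below p = 0.1, so none was used. Pooled low counts carry exact Poisson intervals (95%), and the limit of a count of 0 was 3 counts. Reads carried no molecular identifiers. Libraries of a group differed by far more than sampling noise and all were kept. The labels do not say that replicates came from separate cultures, so p-values reflect the spread among these libraries alone, and this spread may be technical. Replicate numbers were not treated as pairs. The steps were checked on simulated data. Of 100 genes changed by 1 on the log2 scale, 22% were called in KO_1E7 against parental and 16% between the clones. Of 100 changed by 2, these shares were 67% and 71%. No other gene was changed in the simulation, whereas 854 and 2010 genes were called in these comparisons of the data. The adjustment is stricter where fewer genes change, so the shares do not give the sensitivity of the real comparisons. A gene that was not called may still differ.

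The 8 genes and the 7 related lists were chosen with earlier results of these data known. Named are the 8 genes, list genes called in at least 1 comparison, the 2 tested genes most like each of the 6 tested among the 8 by Pearson r, and Vipr2. Alternatives were other scalings, no expression filter, only the 2 groups compared, the replicate number as a block, a term for the word NSG, ribosomal RNA related genes left out, each library left out in turn, and sets of libraries left out, the last 2 of these sets added after seeing the data.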

Additional observations from a re-analysis of the deposited data

How the results depend on the processing

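Among log2 fold changes of the 6 tested genes under alternatives, 325 kept direction and call, 17 lost the call, 4 gained it and 14 changed sign. All sign changes were of values that were not called. For Cd47 in KO_1E7 against parental the log2 fold change was -0.10 without KO_1E7 library 2, -0.03 without parental library 1 and -0.08 without parental library 2. For Cd47 in CRISPR_1G2 against parental it was -0.042 with upper quartile scaling, -0.022 without the third library of each group, -0.021 without parental 3 and CRISPR_1G2 3, -0.015 when KO_1E7 2 was left out too, -0.21 without CRISPR_1G2 library 3, -0.05 without parental library 1 and -0.10 without parental library 2. Between the clones it was -0.11 without KO_1E7 library 2, -0.08 without CRISPR_1G2 library 1 and -0.06 without CRISPR_1G2 library 2. For Cd274 in CRISPR_1G2 against parental it was 0.25 without parental library 3. Leaving out single libraries gave a range of -0.10 to 0.23 for Cd47 in KO_1E7 against parental, -0.21 to 0.20 in CRISPR_1G2 against parental and -0.11 to 0.30 between the clones, and -0.73 to 0.25 for that value of Cd274. The causes were not tested.

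Of the 8 genes, those called in KO_1E7 against parental numbered 2 with DESeq2 and 2 without parental 3, CRISPR_1G2 3 and KO_1E7 2, where Pvr (adjusted p = 5.93e-04, edgeR) and Nectin2 (0.00357) were lower. That set was chosen after seeing the data. It leaves out the KO_1E7 library with the highest value of both genes, so no conclusion is drawn from its calls. Between the clones 1 was called with no filter on low counts, 1 without the third library of each group, and between 0 and 3 when single libraries were left out. Nectin2 was the one kept in both of the first 2 settings, while Pvr had adjusted p of 0.0895 and 0.0842 and Lgals9 of 0.0609 and 0.0694 (edgeR). In CRISPR_1G2 against parental the count was 0 in all settings.

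Over all tested genes, calls in KO_1E7 against parental numbered 854, and 2358 with DESeq2, 546 with no filter, 2060 with a term for the word NSG, 1737 without the third libraries, 3330 without parental 3 and CRISPR_1G2 3, 4423 when KO_1E7 2 was left out too, and 24 to 1998 when single libraries were left out. Between the clones they numbered 2010, and under the same settings 3374 with DESeq2, 3330 with the NSG term, 3111, 4615, 5557 and 453 to 2332. In CRISPR_1G2 against parental they numbered 40, and 235 with DESeq2, of which 29.4% were higher where 0% were higher with edgeR, 16 with only those 2 groups, 326 without parental 3, CRISPR_1G2 3 and KO_1E7 2, and 15 to 71 when single libraries were left out. Fits that leave a group with 2 libraries borrow the spread of the others. The sets without parental 3 and CRISPR_1G2 3, with or without KO_1E7 2, were chosen after seeing the data. No scaling moved the median of all genes by over 0.1.

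With the replicate number as a block, the calls over all genes numbered 1298, 37 and 2614 in KO_1E7 against parental, CRISPR_1G2 against parental and KO_1E7 against CRISPR_1G2, and 0, 0 and 3 among the 8 genes. The deviations of same-numbered libraries correlated between -0.05 and 0.65, over 0.1 in 5 of 9 pairs, and 4 of 9 libraries correlated best with their own number in both other groups, so the numbers were not taken as pairs. CRISPR_1G2 library 1 and parental library 2, which share a header date, correlated at 0.54. KO_1E7 library 1 and parental library 1, which share another, correlated at -0.003. An effect of the dates was not tested. Depth limits Pdcd1lg2, Entpd1 and Vipr2, which had at most 13 counts in any library.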

Other observations

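Cd80, a B7 family ligand of CTLA-4 and CD28 that also binds PD-L1, had 4.95, 9.74 and 4.98 CPM in KO_1E7, 4.50, 11.3 and 83.3 CPM in CRISPR_1G2 and 5.87, 3.78 and 32.2 CPM in parental. The high values were those of the third libraries of CRISPR_1G2 and parental, whose headers hold the word NSG, while the third KO_1E7 library, which holds it too, was not high. Tnfsf9, the ligand of the costimulatory receptor 4-1BB, was low in the same pair of libraries, at 4.18 CPM in CRISPR_1G2 library 3 and 4.28 CPM in parental library 3. It was between 14.4 and 27.6 CPM in the other 7 libraries. Irf9, which carries interferon signals, was highest in parental library 3, at 90.9 CPM, where Cd274 was also highest at 9.17 CPM. In the other libraries Irf9 was between 15.4 and 38.8 CPM. These genes were chosen after their values were seen, none of them was called in any of the 3 comparisons (edgeR), and what the word NSG stands for is not given in the sources used here.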
